A study of Mus musculus with 9 samples.

Results

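Kidneys whose ureter had been closed for 2 days were compared with control kidneys across all genes measurable on an array. The comparison was set by the labels and not by any measured value: it takes the 3 arrays of the clip group and the 3 arrays of the control arm, 6 of the 9 arrays of the series, and every gene that could be tested, 17742 in number. All mice were male, 10 weeks old and of the ISAM line on a mixed strain background. Their genotype is given as Epo–/–::3.3K-Epo3'-Tg458, which means that both endogenous erythropoietin alleles are lost and a transgene is carried, and ISAM mice are known for a severe anaemia of erythropoietin deficiency. Control and obstructed mice alike carry this genotype, so no sample in the series has a normal erythropoietin gene. In the obstructed group a vascular clip closed the left ureter for 2 days. The control arm joined 2 sham-treated mice with 1 untreated mouse. No day of collection is stated for these 3 mice, so effects of surgery and of time after surgery cannot be told apart from those of obstruction. The other 3 mice of the series, whose clip was taken off 12 days before collection, entered only the shared estimate of the spread.

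When urine cannot leave the kidney, pressure rises in the tubules, filtration falls, and the tubule epithelium loses its differentiated transport and metabolic programme while injured cells divide. Leukocytes enter the interstitium, and fibroblasts and pericytes there turn into matrix-producing myofibroblasts. The obstructed kidney is for this reason a standard model of tubular injury and of interstitial fibrosis. A nephron runs from the glomerulus through the proximal tubule, which reclaims most filtered solutes on mitochondrial energy, the thin and thick limbs, the distal convoluted tubule and the collecting duct.

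Whole-kidney RNA was measured with 1 single-colour array per mouse. Levels are given as log2 of the signal over the 75th percentile of its array, so that 0 stands for that percentile, and they can be compared between arrays for a given gene but not between genes. That percentile lay between 320.4 and 439 on the 6 arrays, and 53.2% to 57.5% of probes were well above background. Differences are log2 changes, obstructed minus control, with the standard error of the fit (n = 3 per arm). A change is called at a Benjamini-Hochberg adjusted p under 0.05 in limma, two-sided over all 17742 genes, and "rose" and "fell" are kept for called changes. A gene not well above background on any array of its dimmer arm has only a lower bound, written "at least" a number of folds. The bound sets the bright arm's mean against a floor taken per array, either the dim signal itself or, where that is lower, the weakest signal that any probe detected on that array gave. Where only some arrays of the dimmer arm measured a gene, their number is given. Whole-kidney RNA cannot tell fewer cells of a type from less RNA per cell.

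Nearly as many genes differed between obstructed and control kidneys as did not. At the threshold 48.9% of the genes tested were called, 21.4% as higher and 27.5% as lower, and the arms did not overlap in 58.6% of all genes. The 2 directions were unlike in size. Rises of at least 2-fold were 9.44% of the genes tested and such falls 9.49%, but 594 rises against 398 falls reached 4-fold, 210 against 80 reached 8-fold, 61 against 23 reached 16-fold and 21 against 5 reached 32-fold. These counts take the fitted change of every called gene, also where only a lower bound holds, and were not made with the bounds. With this scaling falls were the more frequent, and by fitted change the largest changes were mostly rises. Of the genes named by symbol 52.5% were called, and of the 4725 known by an accession alone 39.0%, with 635 rises and 1207 falls. In 464 called genes the control arm was not well above background on any array while all 3 obstructed arrays were, and the reverse held for 109. The obstructed kidneys were no more scattered than the control kidneys: in the 15465 genes well above background on all 6 arrays the median SD was 0.14 over the obstructed arrays and 0.16 over the control arrays. Across genes, which are not independent replicates, the correlation was 0.979 to 0.99 within an arm and 0.923 to 0.938 between an obstructed and a control array. Over the called genes the median size of the change was 0.83, 0.89 and 0.76 on the log2 scale in obstructed kidneys 1, 2 and 3. The same arrays made the calls, which favours genes that moved alike in all 3, so these sizes are a description only. Each of the 3 slides held 1 control and 1 obstructed array, and 8655 of the 8676 called genes had the same direction on all 3 slides. The slides are no separate check, because the calls rest on the same arrays. In 8568 of the called genes the arms did not overlap, which fixes the direction on every slide. With the slide as a block 10337 genes were called, 4458 higher and 5879 lower.

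**Figure D1:**
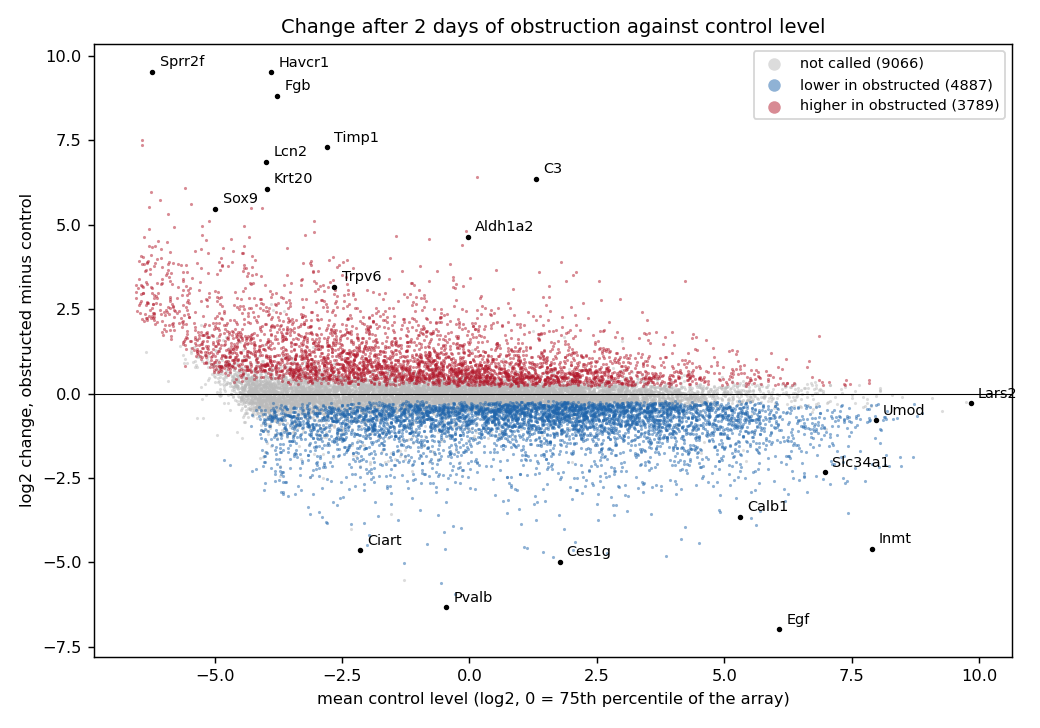
Each point is a gene: its mean level over the 3 control arrays (horizontal, log2, 0 is the 75th percentile of the array) against its log2 change in obstructed kidneys (vertical). Red points (3789) were called higher, blue points (4887) lower and grey points (9066) neither; the changes above 5 sit mostly at control levels below 0, and those below -4 include bright genes such as Egf and Inmt.

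The scaling of the arrays matters for small changes. Quantile normalization in place of the 75th percentile moved the split from 43.7% to 52.9% rises among called genes (4541 higher, 4042 lower), and brought the median change of all genes from -0.09 to within 0.01 of 0. With normexp background correction 2519 genes were higher and 3107 lower, and the median of all genes was 0.10, a shift of over 0.1. Of the 207 called genes named here, 69 had a log2 change under normexp that was smaller by over 1.5 times, 7 lost the call and none changed sign. The named genes are mostly large changes. Over all 8676 called genes the sign turned in 758 with normexp and in 64 with quantile normalization, none of them called the other way.

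Injured-tubule, plasma-protein and surface-keratin genes led the rises. Havcr1, which encodes the tubular injury receptor KIM-1, had levels of -4.25 and -4.36 in the sham kidneys, -3.04 in the untreated kidney and 5.66, 5.64 and 5.61 in the obstructed kidneys (log2 change 9.52 ± 0.36, adjusted p = 1.23e-06, measured on 1 of the 3 control arrays). The obstructed kidneys differed by less than 0.1 and lay far above every control kidney. Timp1, an inhibitor of matrix metalloproteinases, had levels of -2.48 and -3.22 in the sham kidneys, -2.69 in the untreated kidney and 4.54, 4.67 and 4.31 in the obstructed kidneys (log2 change 7.30 ± 0.34, adjusted p = 2.54e-06). Complement component C3 was already measurable in control kidneys and had levels of 1.37 and 0.72 in the sham kidneys, 1.80 in the untreated kidney and 7.41, 7.90 and 7.67 in the obstructed kidneys (log2 change 6.36 ± 0.30, adjusted p = 3.09e-06). C3 thus reached a level in every obstructed kidney that control kidneys did not come near. Krt20, an intermediate filament of surface epithelia, had levels of -4.17 and -4.26 in the sham kidneys, -3.49 in the untreated kidney and 2.20, 2.41 and 1.67 in the obstructed kidneys (log2 change 6.07 ± 0.29, adjusted p = 3.15e-06, measured on 1 of the 3 control arrays). Tmem145, a membrane protein of little-known function, rose by 5.50 ± 0.34 (adjusted p = 8.7e-06, measured on 2 of the 3 control arrays). From control levels not well above background, Sprr2f, a cornified-envelope precursor, rose at least 192-fold, Sox9, a transcription factor of repairing tubule cells, at least 27.3-fold, and Meltf, an iron-binding surface protein, at least 27.2-fold. The interleukin-1 receptor antagonist Il1rn rose at least 16.1-fold and the interleukin-36 ligand Il1f6 at least 15.5-fold.

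The falls were led by Egf, the growth factor that thick limb and distal tubule cells shed into urine. Its levels were 5.93 and 6.11 in the sham kidneys, 6.22 in the untreated kidney and -0.85, -0.93 and -0.87 in the obstructed kidneys (log2 change -6.97 ± 0.10, adjusted p = 1.91e-08), a 125-fold fall that was close to equal in all 3 obstructed kidneys. Inmt, a methyltransferase of small amines, had levels of 7.89 and 7.85 in the sham kidneys, 7.95 in the untreated kidney and 3.41, 2.98 and 3.51 in the obstructed kidneys (log2 change -4.60 ± 0.16, adjusted p = 1.04e-06). Hpd, which breaks down tyrosine, had levels of 1.48 and 1.74 in the sham kidneys, 1.71 in the untreated kidney and -2.74, -3.74 and -3.12 in the obstructed kidneys (log2 change -4.84 ± 0.30, adjusted p = 9.18e-06). Both arms were tight for these genes, and the gap between them was several times the spread within either. Ces1g, a carboxylesterase, was less even, at 2.22 and 2.24 in the sham kidneys, 0.85 in the untreated kidney and -3.74, -3.76 and -2.14 in the obstructed kidneys (log2 change -4.98 ± 0.52, adjusted p = 0.000107): the untreated kidney was the lowest control and obstructed kidney 3, on the same slide, the highest of its arm. Angptl7, a secreted angiopoietin-like protein, fell by 4.64 ± 0.95, with sham kidney 1 at 4.72 and the other controls at 0.53 and 0.86. Its arms did not overlap, but the control kidneys were widely scattered. The calcium buffer Pvalb of the distal convoluted tubule fell at least 17.8-fold and Tmem207, a membrane protein of the thick limb, at least 20.0-fold, both to levels not well above background in obstructed kidneys. Kcnt1, a sodium-activated potassium channel, fell by 4.57 ± 0.26 and the glutathione peroxidase Gpx6 by 4.71 ± 0.21.

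**Figure D2:**
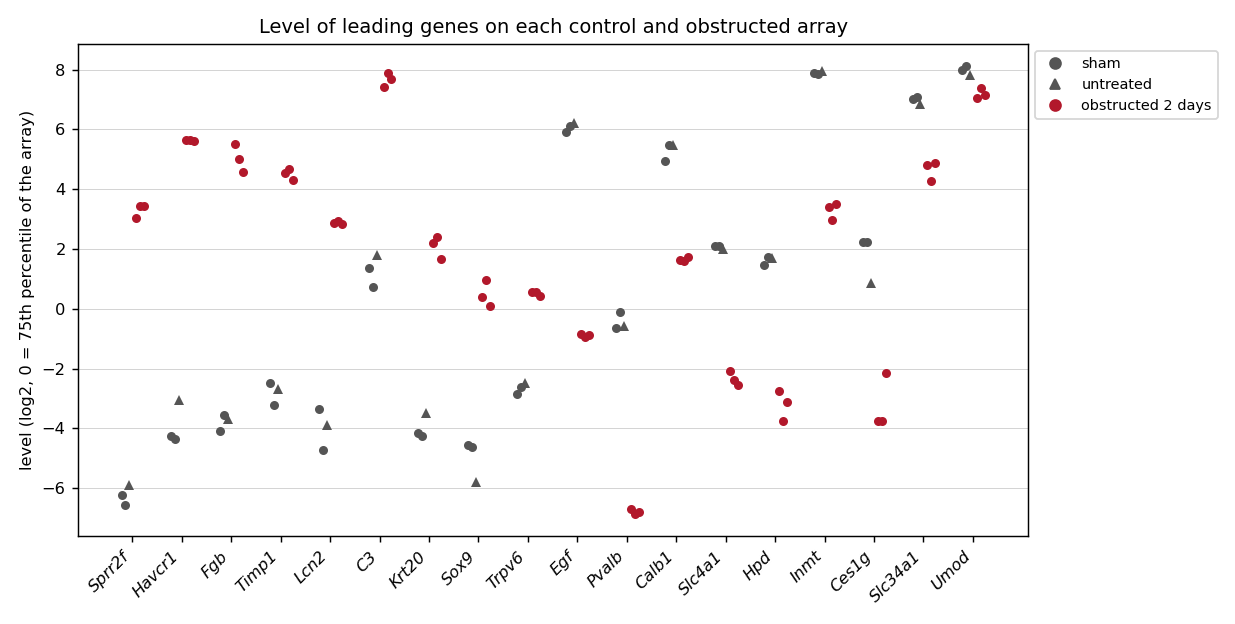
Levels (log2, 0 is the 75th percentile of the array) of 18 genes on each of the 2 sham (grey circles), 1 untreated (grey triangles) and 3 obstructed (red circles) arrays; levels compare arrays within a gene, not genes with each other. The arms do not overlap in any of the 18 genes, and the gap runs from Umod (-0.78) to Sprr2f and Havcr1.

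Along the nephron the losses were uneven. In the list for the straight part of the proximal tubule, 21 members were tested and 0 rose, 20 fell and 1 did not pass (median -2.04), and in the list for its convoluted part, 20 were tested and 1 rose, 18 fell and 1 did not pass (median -1.36), beside 27.5% lower and a median of -0.09 over all genes tested. The straight part lost Slc7a13, its cystine carrier (-3.94 ± 0.23), Slc22a7 (-3.20 ± 0.18) and Slc22a30 (-3.08 ± 0.24), all organic ion or amino acid carriers. The convoluted part lost G6pc, the last enzyme of glucose output (-3.68 ± 0.24), and the neutral amino acid carrier Slc6a19 (-2.81 ± 0.16). The phosphate carrier Slc34a1 had levels of 7.02 and 7.07 in the sham kidneys, 6.86 in the untreated kidney and 4.82, 4.27 and 4.87 in the obstructed kidneys (adjusted p = 1.95e-05). Obstructed kidney 2 was the lowest for Slc34a1 and all 3 obstructed kidneys lay below all controls. The sulfate carrier Slc13a1 went the other way (1.22 ± 0.17).

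The thin limb list had no lean to falls. Of 14 thin limb genes 5 rose, 2 fell and 7 did not pass (median 0.42), with 3 rises in place of 5 when sham kidney 2, obstructed kidney 1 or obstructed kidney 2 was left out and with normexp. Cryab, a small heat shock protein of the medulla, rose by 1.76 ± 0.14, with levels of 6.15, 6.27 and 6.04 in the obstructed kidneys, against 4.41 and 4.18 in the sham kidneys and 4.58 in the untreated kidney. Epha7, an ephrin receptor, rose by 1.11 ± 0.25, measured on 2 of the 3 control arrays, while the paracellular channel Cldn10 (-1.28 ± 0.15) fell. Over the thick ascending limb list, 18 members were tested and 1 rose, 13 fell and 4 did not pass (median -1.56, or -0.71 with normexp, where 9 fell). Umod, which encodes uromodulin of the thick limb and of normal urine, moved by less, at 8.0 and 8.11 in the sham kidneys, 7.81 in the untreated kidney and 7.06, 7.37 and 7.14 in the obstructed kidneys (log2 change -0.78 ± 0.12, adjusted p = 0.000711), and its call was lost with quantile normalization (adjusted p = 0.0657). The rise in that list was Cldn14, a claudin that blocks calcium passage (2.04 ± 0.27, measured on 2 of the 3 control arrays).

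In the distal convoluted and connecting tubule list 20 members were tested and 1 rose, 16 fell and 3 did not pass (median -1.39). Calb1, the calbindin that carries calcium across the cell, had levels of 4.96 and 5.47 in the sham kidneys, 5.49 in the untreated kidney and 1.62, 1.62 and 1.74 in the obstructed kidneys (log2 change -3.65 ± 0.15, adjusted p = 1.39e-06). The salt carrier Slc12a3, target of thiazides, had levels of 4.15 and 4.48 in the sham kidneys, 3.91 in the untreated kidney and 2.01, 2.09 and 1.71 in the obstructed kidneys (log2 change -2.24 ± 0.16, adjusted p = 1.48e-05). In both genes the arms were tight and wide apart. The calcium channels of this segment did not follow: Trpv6 had levels of -2.85 and -2.62 in the sham kidneys, -2.48 in the untreated kidney and 0.57, 0.56 and 0.41 in the obstructed kidneys (log2 change 3.16 ± 0.12, adjusted p = 1.23e-06), and Trpv5 rose by 1.73 ± 0.29, measured on 2 of the 3 control arrays. Calcium entry channels were thus higher in the same kidneys in which the calcium-binding proteins Calb1, S100g (-2.32 ± 0.20) and Pvalb were lower.

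Both cell types of the collecting duct had more falls than rises, and a difference between them was not tested. Of 20 intercalated cell genes 0 rose, 18 fell and 2 did not pass (median -1.19). The anion exchanger Slc4a1 had levels of 2.10 and 2.11 in the sham kidneys, 2.01 in the untreated kidney and -2.06, -2.38 and -2.53 in the obstructed kidneys (log2 change -4.40 ± 0.15, adjusted p = 1.04e-06), and the ammonia channels Rhbg (-2.29 ± 0.13) and Rhcg (-2.0 ± 0.14) fell with it. Over the principal cell list 18 members were tested and 1 rose, 9 fell and 8 did not pass (median -0.49), with the water channels Aqp3 (-2.56 ± 0.16) and Aqp2 (-1.77 ± 0.17) among the falls. Over glomerular genes the picture was mixed. Of 25 podocyte and parietal cell genes 5 rose, 10 fell and 10 did not pass (3 rose with normexp), with Nphs1, the slit-diaphragm protein nephrin, at -0.93 ± 0.13, the foot process protein Clic5 at -1.16 ± 0.14 and the adaptor Cd2ap at 0.83 ± 0.10, all called. Of 24 endothelial genes 5 rose, 5 fell and 14 did not pass (median 0.02, negative with normexp at -0.03); 9 rose with quantile normalization, and 3 rose without obstructed kidney 1 or 2. Kdr, the main VEGF receptor, fell (-1.25 ± 0.16) and Pecam1, a general endothelial marker, was not called (log2 change 0.40 ± 0.24, adjusted p = 0.202), though it was with the slide as a block (adjusted p = 0.00671).

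**Figure D3:**
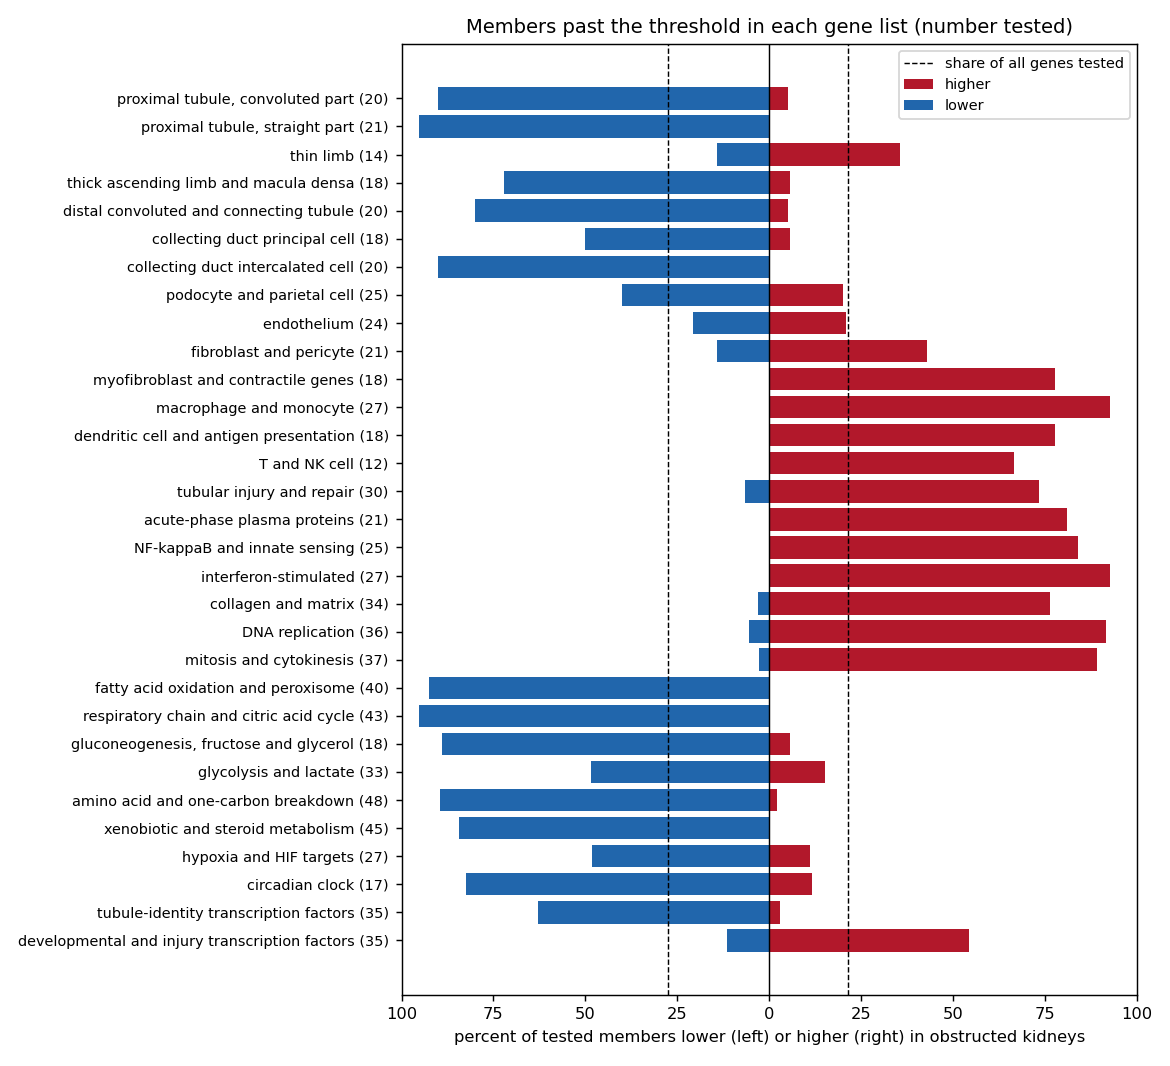
Bars give, for 31 gene lists with the number of members tested in brackets, the percent of members called lower (blue, left) and higher (red, right) in obstructed kidneys; the dashed lines mark the shares over all genes tested, 27.5% lower and 21.4% higher. Most tubule and metabolism lists reach past the left line and most leukocyte, matrix and cell division lists past the right one. The thin limb list reaches past the right line (35.7% higher) and the podocyte list past the left (40% lower). The endothelium list (20.8% each way) passes neither.

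Genes were also grouped by symbol pattern, which takes in a few neighbours of a family that share its prefix, such as Slc9a3r1 and Sox2ot. The solute carriers, which move ions, sugars, amino acids and drugs across membranes, formed the largest family with a clear lean: 265 were tested and 34 rose, 147 fell and 84 did not pass (median -0.59). Slc22a22, a prostaglandin-transporting organic anion carrier, fell by 4.0 ± 0.29. Phosphate carriers went both ways: Slc34a2, the carrier of lung and gut, had levels of -4.13 and -3.75 in the sham kidneys, -3.82 in the untreated kidney and -1.05, -1.30 and -0.81 in the obstructed kidneys (log2 change 2.85 ± 0.21, adjusted p = 1.69e-05), while Slc34a1 and Slc34a3 (-2.49 ± 0.23), the carriers of the proximal tubule, fell. All 3 obstructed kidneys showed both directions.

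Carriers of the mitochondrial inner membrane were lower almost throughout. Of 40 Slc25 genes 2 rose, 34 fell and 4 did not pass (median -0.71; with normexp 23 fell). Slc25a25, a calcium-regulated ATP and phosphate exchanger, fell by 3.43 ± 0.25. Slc25a24, a second carrier of this exchanger type, rose instead, with levels of -0.97 and -1.08 in the sham kidneys, -1.06 in the untreated kidney and 1.76, 2.03 and 1.70 in the obstructed kidneys (log2 change 2.87 ± 0.11, adjusted p = 1.36e-06). Over the proton pump of lysosomes and intercalated cells 23 subunits were tested and 0 rose, 18 fell and 5 did not pass (median -0.47; 8 fell with quantile normalization). Atp6v1b1 (-1.81 ± 0.12) and Atp6v1c2 (-1.97 ± 0.34) fell most. Of 8 aquaporins 0 rose, 4 fell and 4 did not pass, including Aqp11 (-2.09 ± 0.29), which sits in membranes inside proximal tubule cells. Of 17 claudins, the proteins that set which ions pass between cells, 7 rose, 4 fell and 6 did not pass: Cldn1 (2.43 ± 0.17) and Cldn4 (2.13 ± 0.35) rose. Kcnk5, a potassium channel of bicarbonate-reclaiming cells, fell by 1.83 ± 0.24, and Kcnn4, a calcium-activated potassium channel of blood and injured cells, rose by 2.35 ± 0.35.

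Genes of energy metabolism fell in nearly every member tested. No gene of fatty acid oxidation and peroxisomes rose: 40 were tested and 0 rose, 37 fell and 3 did not pass (median -1.36). No gene of the respiratory chain and citric acid cycle rose either, with 43 tested, 41 of them lower (median -0.97, or -0.61 with quantile normalization). Sdha, the catalytic subunit of succinate dehydrogenase, fell by 1.59 ± 0.11, the isocitrate dehydrogenase Idh2 by 1.98 ± 0.21, and Ndufs1, a core subunit of complex I, by 1.47 ± 0.13. By complex, 34 of 36 complex I subunits (median -0.78; 25 and -0.39 with quantile normalization) and 16 of 17 ATP synthase subunits (median -0.76; 14 and -0.36 with quantile normalization) fell and none rose. Their changes were small and alike, as complex I members ran only from -1.47 to -0.35. The regulator Ppara, which drives fatty acid oxidation genes, had levels of 3.49 and 3.47 in the sham kidneys, 3.37 in the untreated kidney and 1.82, 1.45 and 1.91 in the obstructed kidneys (log2 change -1.71 ± 0.14, adjusted p = 2.56e-05). Acsm2, a proximal tubule enzyme that activates medium-chain fatty acids, fell by 2.58 ± 0.17, Acox3, of peroxisomal oxidation, by 2.10 ± 0.12, and Cat, the peroxisomal catalase, by 1.63 ± 0.14. Acsbg1, an acyl-CoA synthetase of brain and testis, rose by 3.17 ± 0.28 against this trend.

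Sugar and amino acid enzymes showed the same lean with isolated exceptions. In the gluconeogenesis, fructose and glycerol list 18 were tested and 1 rose, 16 fell and 1 did not pass (median -1.60). The fructose kinase Khk had levels of 8.30 and 8.17 in the sham kidneys, 8.22 in the untreated kidney and 6.25, 5.58 and 6.43 in the obstructed kidneys (log2 change -2.14 ± 0.20, adjusted p = 5.8e-05) and Fbp1, a control point of glucose production, levels of 8.51 and 8.49 in the sham kidneys, 8.37 in the untreated kidney and 6.71, 6.25 and 6.74 in the obstructed kidneys (log2 change -1.89 ± 0.14, adjusted p = 1.67e-05). All obstructed kidneys lay below all controls for both. The rise in this list was Pck2, the mitochondrial form of the enzyme that makes phosphoenolpyruvate (1.36 ± 0.16). Of 48 genes of amino acid and one-carbon breakdown 1 rose, 43 fell and 4 did not pass (median -1.63), the rise being the mitochondrial arginase Arg2 (2.54 ± 0.26). Gnmt (-2.57 ± 0.20) and Shmt2 (-2.01 ± 0.17), both of one-carbon exchange, fell. Asns, which makes asparagine, rose by 1.88 ± 0.25 and Aldh18a1, the first enzyme of proline synthesis, by 1.99 ± 0.20, measured on 2 of the 3 control arrays.

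Glycolysis did not move as a block. Of 33 members 5 rose, 16 fell and 12 did not pass (median -0.30; with quantile normalization 8 fell and the median was -0.03, and with normexp it was -0.46). Hk2, the hexokinase of growing and hypoxic cells, had levels of -2.51 and -2.42 in the sham kidneys, -1.79 in the untreated kidney and 0.24, 0.39 and 0.29 in the obstructed kidneys (log2 change 2.54 ± 0.25, adjusted p = 7.44e-05), and Eno2, an enolase form of neurons, rose by 1.96 ± 0.20. The aldolase Aldoc (-2.15 ± 0.18), phosphofructokinase Pfkm (-1.12 ± 0.10) and Pdk1, a brake on pyruvate oxidation (-1.34 ± 0.13), fell. The hypoxia list, which shares several of these enzymes, had 27 tested, of which 3 rose, 13 fell and 11 did not pass (median -0.44; -0.15 with quantile normalization, and 1 rose with normexp); its members Vegfa (-1.42 ± 0.10) and Car9 (-2.85 ± 0.20) were lower.

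Enzymes of drug, lipid and steroid handling were lost across families. Of 45 list members 0 rose, 38 fell and 7 did not pass (median -1.54). Every one of the 10 carboxylesterases tested fell (median -2.28, or -1.73 with dim genes at their bound; 6 were called with normexp), Ces1d by 4.44 ± 0.29 and Ces1e by 4.8 ± 0.20. Of 47 cytochromes P450 7 rose, 25 fell and 15 did not pass, with Cyp2d9 at -3.48 ± 0.22, and of 10 glucuronosyltransferases 7 fell and none rose, Ugt3a1 by 2.29 ± 0.15. Aldehyde dehydrogenases split: of 18 tested 4 rose, 11 fell and 3 did not pass. Aldh1a2, which makes retinoic acid, had levels of 0.05 and -0.06 in the sham kidneys, -0.08 in the untreated kidney and 4.77, 4.67 and 4.42 in the obstructed kidneys (log2 change 4.65 ± 0.16, adjusted p = 1.04e-06), whereas Aldh6a1 fell by 2.07 ± 0.15. The rise of Aldh1a2 was 25.1-fold, from a control level near the 75th percentile.

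The protein-making machinery of the mitochondrion and that of the cytosol leaned opposite ways. Of 77 mitochondrial ribosomal proteins 2 rose, 54 fell and 21 did not pass (median -0.41; 3 rose and 26 fell with quantile normalization, median -0.20). Mrps21 (-1.09 ± 0.15) and Mrpl34 (-0.94 ± 0.11) fell most. The symbol pattern for cytosolic ribosomal proteins took in 91 genes, of which 16 were S6 kinases, ribosomal-like proteins or a binding protein. Of the remaining 75, a division made after the values were seen, 31 rose and 1 fell, with a median of 0.27 and a range of -0.33 to 0.83. This count depended strongly on the scaling: 67 rose and 0 fell with quantile normalization (median 0.67) and 2 rose and 1 fell with normexp (median 0.07), and 18 rose without obstructed kidney 1. Of 17 cytosolic aminoacyl-tRNA synthetases, which load amino acids for translation, 8 rose and none fell (median 0.27, or 0.45 with quantile normalization; 3 rose with normexp, and 5 without sham kidney 2 or without obstructed kidney 1 or 2), Vars by 0.97 ± 0.09 and Cars by 0.72 ± 0.10.

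Among 49 proteasome genes 7 rose, 7 fell and 35 did not pass (median -0.10; with quantile normalization 15 rose, 1 fell and the median was 0.18, and 4 fell with normexp). Psmb8 had levels of 1.54 and 1.56 in the sham kidneys, 1.32 in the untreated kidney and 3.29, 3.50 and 2.98 in the obstructed kidneys (log2 change 1.78 ± 0.15, adjusted p = 2.79e-05), and Psmb10 rose by 1.74 ± 0.16. Both encode catalytic subunits of the immunoproteasome, the interferon-induced form that cuts peptides for display on MHC class I. Psmb7, the standard subunit that Psmb10 replaces, fell by 0.45 ± 0.11, a call lost with normexp (adjusted p = 0.0556) and with quantile normalization (0.152). Of 67 heat shock proteins 11 rose, 27 fell and 29 did not pass, against 4 rises and 25 falls with normexp and 17 and 20 with quantile normalization. The small chaperones Hspb1 (3.19 ± 0.22) and Hspb8 (1.87 ± 0.15) were among the rises, and the cochaperones Dnajc12 (-2.92 ± 0.23) and Dnajc6 (-2.13 ± 0.20) among the falls.

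**Figure D4:**
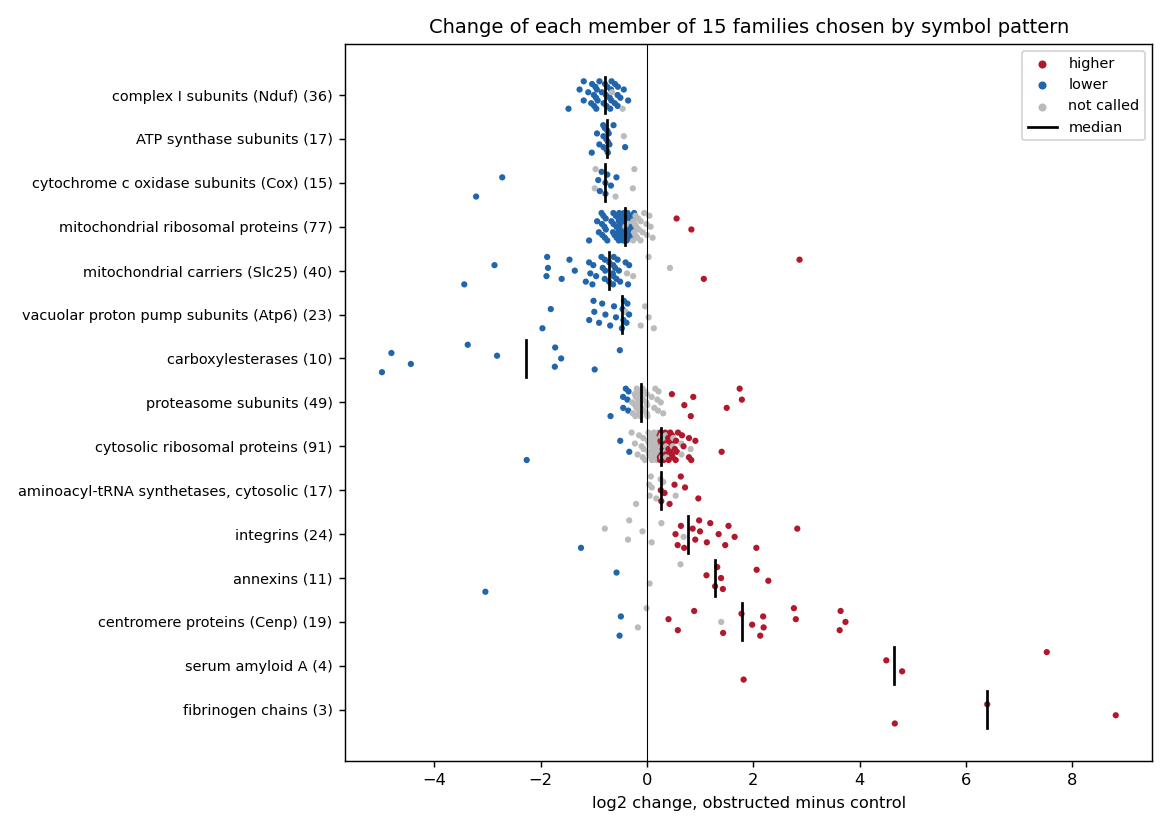
Each point is the log2 change of 1 gene (horizontal) in one of 15 families chosen by symbol pattern (rows, number tested in brackets); red was called higher, blue lower, grey neither, and black bars are medians. Mitochondrial families sit left of 0 with medians from -0.78 to -0.41, cytosolic ribosomal proteins and tRNA synthetases slightly right of it at 0.26 and 0.27, and serum amyloid and fibrinogen genes far right.

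Genes of the dividing cell rose with few exceptions. Of 36 DNA replication genes 33 rose, 2 fell and 1 did not pass (median 1.37), and of 37 genes of mitosis and cytokinesis 33 rose, 1 fell and 3 did not pass (median 3.15, or 2.94 with dim genes at their bound; 1.76 with normexp). Uhrf1, which keeps DNA methylation through replication, had levels of -2.94 and -2.56 in the sham kidneys, -2.53 in the untreated kidney and 1.11, 1.43 and 1.54 in the obstructed kidneys (log2 change 4.04 ± 0.15, adjusted p = 1.23e-06). Mcm5, a subunit of the replicative helicase, had levels of -0.81 and -1.06 in the sham kidneys, -1.47 in the untreated kidney and 1.55, 1.60 and 1.63 in the obstructed kidneys (log2 change 2.70 ± 0.18, adjusted p = 1.12e-05). Mki67, the marker of cycling cells, had levels of -1.02 and -0.49 in the sham kidneys, -0.41 in the untreated kidney and 3.05, 2.99 and 2.96 in the obstructed kidneys (log2 change 3.64 ± 0.16, adjusted p = 2.43e-06). In each the obstructed kidneys differed among themselves by under 0.5 and stood clear of all controls. Ube2c, which feeds the anaphase-promoting complex, rose by 2.94 ± 0.11, and Foxm1, a transcription factor of mitotic genes, by 2.90 ± 0.13. From levels not well above background in control kidneys, Tpx2, a spindle assembly factor, rose at least 13.5-fold, Espl1, the protease that parts sister chromatids, at least 9.87-fold, and Cdc6, which licenses replication origins, at least 4.83-fold. E2f7 and E2f8, repressors that act late in the cycle, rose at least 4.71-fold and at least 3.52-fold.

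Among the exceptions, Pttg1, the securin that holds the parting protease back, fell, with levels of 4.58 and 4.71 in the sham kidneys, 4.72 in the untreated kidney and 3.79, 3.81 and 3.88 in the obstructed kidneys (log2 change -0.85 ± 0.09, adjusted p = 0.000129). Mcm10, which helps to start replication forks, fell by 0.75 ± 0.14. Pttg1 and Espl1, an inhibitor and its protease, lay on opposite sides of the controls in all 3 obstructed kidneys. Of 37 G1 regulators and p53 targets 16 rose and 8 fell, and 13 did not pass (16 rose and 3 fell with quantile normalization). The p53 targets Bbc3, Phlda3 and Cdkn1a were among the rises, with fitted log2 changes of 2.13, 1.41 and 1.23. Cyclin E1 (Ccne1) had levels of -0.82 and -1.10 in the sham kidneys, -1.23 in the untreated kidney and 1.53, 1.5 and 1.80 in the obstructed kidneys (log2 change 2.66 ± 0.15, adjusted p = 5.75e-06), while the p53-regulated kinase Plk3 (-2.97 ± 0.40) and Btg2, which slows the cycle (-1.19 ± 0.24), fell. Tubulins, of which spindles are made, gave 9 rises and 1 fall among 18, with Tubb5 at 2.41 ± 0.11 and Tuba4a at -1.21 ± 0.11. Of 34 histone genes 11 rose, 7 fell and 16 did not pass (21 rose with quantile normalization and 7 with normexp); H2ac15 rose by 3.45 ± 0.27.

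Promoter letters of these genes can be read from RefSeq (build GRCm38.p6), whose promoter table matched 10391 of the 13017 genes tested by symbol. The 250 bases before each start were searched on both strands, and a gene with several starts was counted once. The letters CCAAT, which the factor NF-Y is known to bind, were present in 24 of 32 (75%) of the mitosis genes and 17 of 28 (60.7%) of the replication genes, against 4163 of 10391 (40.1%) of all genes tested and, counted by start, 33.8% of all 32851 promoters. The letters TTTGAA, core of the cell cycle genes homology region, were present in 12 of 32 (37.5%), 6 of 28 (21.4%) and 1335 of 10391 (12.8%), and in 16% of all promoters. E2F letters (TTTCCCGC or TTTGGCGC) were present in 0 of 32 (0%), 6 of 28 (21.4%) and 281 of 10391 (2.7%), and in 1.3% of all promoters. CCAAT was also present in 17 of 34 (50%) of the fatty acid oxidation genes and 9 of 14 (64.3%) of the clock genes, which fell. No test was made of these shares, and letters in a promoter do not show that a factor binds.

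The promoter of Ube2c is shown because it carries both kinds of letters. On the plus strand at chr2:164769679-164769928 (GRCm38.p6, read 5′ to 3′ and ending at the base before the start), capitals mark CCAAT or its complement ATTGG and, near the end, TTCAAA, the complement of TTTGAA. The run CCAATTGG holds the letters once on each strand, and with it CCAAT occurs 6 times.
Ube2c: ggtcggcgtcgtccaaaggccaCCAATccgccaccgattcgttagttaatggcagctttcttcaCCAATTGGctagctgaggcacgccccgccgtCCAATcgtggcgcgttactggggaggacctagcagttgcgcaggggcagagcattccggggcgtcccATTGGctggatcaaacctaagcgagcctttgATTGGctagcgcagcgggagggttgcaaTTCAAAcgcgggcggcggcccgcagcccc
The promoter of Mcm5 is shown for its E2F letters. It lies on the plus strand at chr8:75109259-75109508 (GRCm38.p6), and capitals mark GCGCCAAA, the complement of TTTGGCGC, while its CCAAT letters are left in lower case.
Mcm5: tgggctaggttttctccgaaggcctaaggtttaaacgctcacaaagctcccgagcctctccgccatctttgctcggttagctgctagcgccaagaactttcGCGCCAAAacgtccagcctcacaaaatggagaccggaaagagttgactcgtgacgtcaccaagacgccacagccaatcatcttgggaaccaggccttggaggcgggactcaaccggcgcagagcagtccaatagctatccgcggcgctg
Both genes rose in all 3 obstructed kidneys, Ube2c with levels of -1.73 and -1.82 in the sham kidneys, -1.79 in the untreated kidney and 1.27, 1.04 and 1.16 in the obstructed kidneys.

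Regulators of tubule identity mostly fell, and many regulators of injury and growth rose. Of 35 tubule-identity transcription factors 1 rose, 22 fell and 12 did not pass (median -0.73). Klf15, a glucocorticoid-responsive factor of amino acid breakdown, fell by 2.47 ± 0.18, Esrrb, an orphan receptor of distal cells, by 2.26 ± 0.14, and Hnf4a, the master regulator of proximal tubule genes, by a smaller 0.92 ± 0.19. Hnf4a had levels of 2.29 and 2.59 in the sham kidneys, 2.56 in the untreated kidney and 1.38, 1.49 and 1.82 in the obstructed kidneys, so the arms did not overlap but lay close. Of 35 developmental and injury factors 19 rose, 4 fell and 12 did not pass (median 0.43, or 0.67 with quantile normalization; 1 fell with normexp). Besides Sox9, its relative Sox4 rose by 2.13 ± 0.14, and the epithelial factors Klf5 and Klf6 by 1.44 ± 0.22 and 0.98 ± 0.24, the last call being lost with normexp (adjusted p = 0.0525). Foxj1, the master gene of motile cilia, rose at least 1.99-fold. In a joint list of heat shock and immediate early genes 35 were tested and 5 rose, 13 fell and 17 did not pass. The immediate early receptor Nr4a1 (-2.92 ± 0.32) and the phosphatase Dusp1 (-2.17 ± 0.27) fell, and the AP-1 subunit Fosl1 rose at least 2.91-fold.

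Nearly every clock gene differed. All 17 clock genes tested had arms that did not overlap, beside 58.6% of all genes tested. Of the clock genes 14 fell, 2 rose and 1 did not pass, beside 27.5% lower and 21.4% higher over all genes tested. Their median was -1.37, and with normexp 12 fell and the median was -0.84. Arntl encodes BMAL1, which with CLOCK binds E-boxes and drives the period genes and clock outputs. It had levels of -3.99 and -3.84 in the sham kidneys, -2.92 in the untreated kidney and -1.55, -1.52 and -1.92 in the obstructed kidneys (log2 change 1.92 ± 0.27, adjusted p = 0.000467). Per2, which feeds back on it, had levels of 0.39 and 0.31 in the sham kidneys, -0.35 in the untreated kidney and -2.82, -3.07 and -2.26 in the obstructed kidneys (log2 change -2.83 ± 0.27, adjusted p = 6.1e-05), and Usp2, a clock-driven deubiquitinase, levels of 3.62 and 3.31 in the sham kidneys, 3.27 in the untreated kidney and 0.42, 0.21 and 0.81 in the obstructed kidneys (log2 change -2.92 ± 0.16, adjusted p = 6.1e-06). Nfil3, a repressor of clock output, rose by 0.83 ± 0.23 (adjusted p = 0.0151), a call lost with the replicate block (0.0557), without sham kidney 2 (0.0529) and without obstructed kidney 2 (0.0563). Ciart, a repressor of BMAL1 that cycles strongly, fell at least 5.48-fold, a call not kept with normexp (adjusted p = 0.314). Among control kidneys the untreated kidney had the highest Arntl and the lowest Per2, and it lay on the slide of obstructed kidney 3. The hour of collection is not stated for any kidney, so a difference in hour cannot be told apart from obstruction here.

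The promoter of Ciart is shown because E-box letters (CACGTG, the same on both strands) occur 3 times in it, where 1010 of 10391 (9.72%) of all genes tested, 6.02% of all promoters and 3 of 14 (21.4%) of the clock genes hold them at all. The NF-kappaB and innate sensing genes held them in 4 of 19 (21.1%). The Ciart promoter lies on the minus strand at chr3:95882229-95882478 (GRCm38.p6), and capitals mark CACGTG.
Ciart: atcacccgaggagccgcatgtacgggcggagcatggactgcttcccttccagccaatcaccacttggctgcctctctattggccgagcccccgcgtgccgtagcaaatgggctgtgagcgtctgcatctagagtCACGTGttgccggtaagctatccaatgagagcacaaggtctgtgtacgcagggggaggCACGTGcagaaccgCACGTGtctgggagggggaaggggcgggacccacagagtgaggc
In obstructed kidneys the Ciart probe was not well above background on any array, with levels of -6.68, -6.86 and -6.82.

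**Figure D5:**
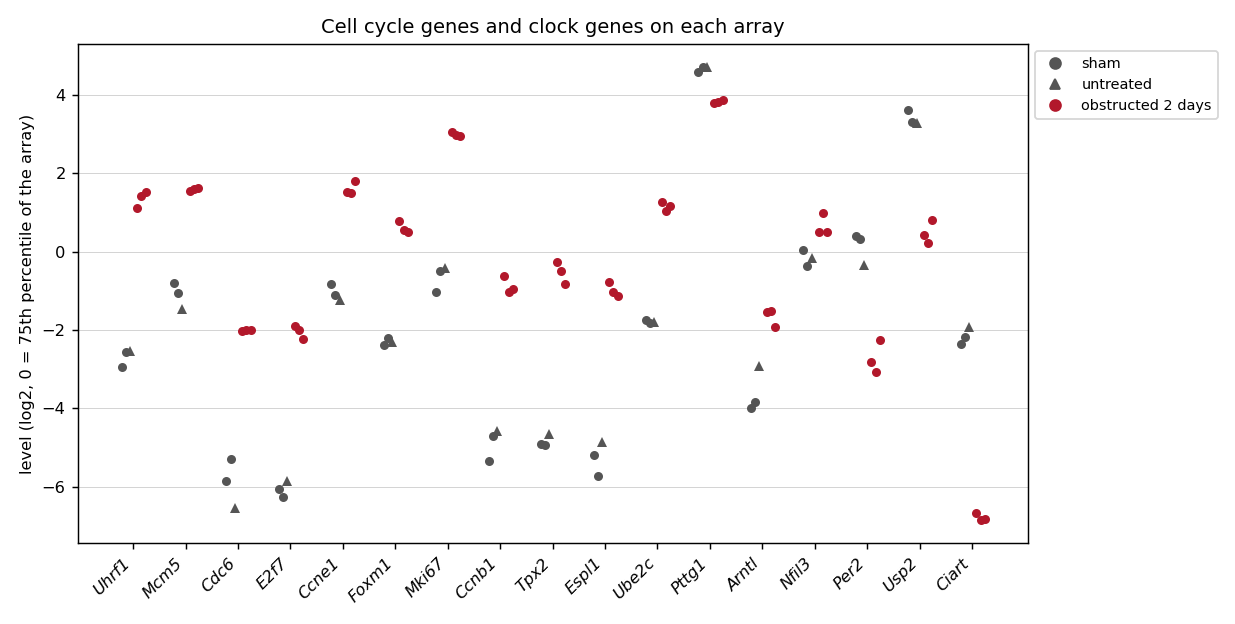
Levels (log2, 0 is the 75th percentile of the array) of 12 cell cycle genes, Uhrf1 to Pttg1, and 5 clock genes, Arntl to Ciart, on the sham (grey circles), untreated (grey triangles) and obstructed (red circles) arrays, to be compared within a gene. Of the cell cycle genes drawn only Pttg1 lies lower in obstructed kidneys, and of the clock genes Arntl and Nfil3 lie higher.

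Genes of proteins that the liver secretes into plasma in inflammation rose in the kidney. Of 21 acute-phase genes 17 rose, 0 fell and 4 did not pass, with a median of 3.66, or 2.74 with dim genes at their bound and 1.83 with normexp. This list also holds genes of proteins that are not secreted, among them Socs3 and Mt2, both counted among the rises. All 3 fibrinogen chains and all 4 serum amyloid A genes rose. Fgb, the beta chain of fibrinogen, had levels of -4.09 and -3.55 in the sham kidneys, -3.68 in the untreated kidney and 5.51, 5.02 and 4.59 in the obstructed kidneys (log2 change 8.81 ± 0.28, adjusted p = 1.04e-06, measured on 2 of the 3 control arrays). The gamma chain Fgg, measured in every control kidney, had levels of 0.14 and 0.24 in the sham kidneys, 0.09 in the untreated kidney and 6.88, 6.56 and 6.23 in the obstructed kidneys (log2 change 6.4 ± 0.17, adjusted p = 5.73e-07). Saa1, an acute-phase apolipoprotein, had levels of -3.34 and -2.69 in the sham kidneys, -3.09 in the untreated kidney and 2.41, 0.99 and 1.86 in the obstructed kidneys (log2 change 4.8 ± 0.36, adjusted p = 1.9e-05), and Saa2 rose at least 41.6-fold. The protease inhibitor Serpina10 rose at least 37.2-fold. The defining hepatocyte transcripts did not rise with them: of 4 marker genes tested 3 fell and none rose, Alb by 2.45 ± 0.30, and their summed level was 0.51 to 1.69 in control and -0.49 to 0.30 in obstructed kidneys.

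STAT letters (TTCNNNGAA, where N is any base) were present in 5 of 17 (29.4%) of the acute-phase genes. They were also present in 5 of 19 (26.3%) of the NF-kappaB and innate sensing genes. The shares were 751 of 10391 (7.23%) over all genes tested and 7.02% over all promoters. A match with TTC before AAA can also hold TTTGAA on the other strand. The promoter of Fgb is shown because this gene had the largest log2 change of the acute-phase list. It lies on the minus strand at chr3:83049864-83050113 (GRCm38.p6), and capitals mark the match.
Fgb: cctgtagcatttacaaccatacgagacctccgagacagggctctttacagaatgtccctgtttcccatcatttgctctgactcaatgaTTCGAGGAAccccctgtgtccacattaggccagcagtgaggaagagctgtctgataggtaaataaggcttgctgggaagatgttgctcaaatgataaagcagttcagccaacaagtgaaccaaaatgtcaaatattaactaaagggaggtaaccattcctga
No assay of a factor at this promoter was part of the study, and the rise of Fgb was present in all 3 obstructed kidneys.

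Genes of stratified and barrier epithelia rose without the plaque genes of the urinary tract lining. In the small proline-rich family 8 were tested and 7 rose: Sprr1a had levels of -0.68 and -0.23 in the sham kidneys, -1.44 in the untreated kidney and 3.75, 4.03 and 3.62 in the obstructed kidneys (log2 change 4.58 ± 0.28, adjusted p = 8.7e-06), and Sprr2g rose by 4.32 ± 0.16. Among 6 uroplakin symbols only the uroplakin-like Upk3bl was called, and the probe that stands for it, of 2 for that gene, was not well above background on any control array (the other was on 1). The summed level of the urothelium markers was -0.04 to 1.02 in control and 1.44 to 2.37 in obstructed kidneys, with 1 of 6 called higher. Their part in the rise of barrier genes was not tested. Keratins of simple epithelia rose too, Krt19 by 2.76 ± 0.13 and Krt18 by 2.68 ± 0.15. Krt19 had levels of -0.03 and -0.29 in the sham kidneys, -0.45 in the untreated kidney and 2.54, 2.40 and 2.58 in the obstructed kidneys, with no overlap between arms.

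Leukocyte genes rose, with the highest of the 3 list medians here among macrophage genes. Of 27 macrophage and monocyte genes 25 rose, 0 fell and 2 did not pass (median 2.13, or 1.95 with dim genes at their bound). Trem2, a lipid-sensing receptor of tissue macrophages, had levels of -2.22 and -3.44 in the sham kidneys, -4.15 in the untreated kidney and 0.66, 0.84 and 0.30 in the obstructed kidneys (log2 change 3.87 ± 0.45, adjusted p = 0.000186). Cd14, a co-receptor for endotoxin, had levels of -0.15 and -0.75 in the sham kidneys, -0.22 in the untreated kidney and 3.65, 3.42 and 3.34 in the obstructed kidneys (log2 change 3.84 ± 0.20, adjusted p = 4.37e-06). Adgre1, which encodes the macrophage antigen F4/80, rose by a smaller 1.5 ± 0.16, and Chil3, a lectin of alternatively activated macrophages, by 4.70 ± 0.61, measured on 2 of the 3 control arrays. The monocyte receptor Ccr2 rose at least 3.91-fold. Of 18 genes of antigen presentation 14 rose, 0 fell and 4 did not pass (median 1.12), with H2-DMa, which loads MHC class II, at 2.20 ± 0.22, and Ciita, its master regulator, at 2.14 ± 0.30. Of 12 T and NK cell genes 8 rose, 0 fell and 4 did not pass (median 1.15, or 0.88 with dim genes at their bound; 5 rose with normexp, median 0.75), Lck among them (1.64 ± 0.23). The summed level of macrophage markers was 2.75 to 3.08 in control and 4.10 to 4.29 in obstructed kidneys, and that of neutrophil markers 1.92 to 3.58 in control and 3.14 to 3.70 in obstructed kidneys, of which none of 3 tested was called. The control and obstructed ranges overlapped for neutrophils and did not for macrophages. In a longer neutrophil list 7 genes were tested, of which 2 rose, 0 fell and 5 did not pass. Without sham kidney 2 only 1 of them rose.

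Signals that attract and activate leukocytes rose with them. Of 26 chemokines and receptors 17 rose, 2 fell and 7 did not pass (median 2.08, or 1.86 with dim genes at their bound; 1.18 with normexp). Ccl2, which draws monocytes, had levels of -2.47 and -2.64 in the sham kidneys, -2.35 in the untreated kidney and 1.16, 1.85 and 1.21 in the obstructed kidneys (log2 change 3.90 ± 0.24, adjusted p = 8.86e-06). From control levels not well above background Ccl12, a second monocyte attractant, rose at least 18.3-fold, Ccl20, made by epithelia, at least 11.5-fold, and Ccl7 at least 5.23-fold. Cxcl12, which retains progenitor cells in tissue, fell by 1.84 ± 0.21. Of 24 cytokines and receptors 18 rose, 2 fell and 4 did not pass (median 1.06, or 0.97 with dim genes at their bound). Clcf1, a ligand that signals through gp130, had levels of -3.55 and -3.56 in the sham kidneys, -3.66 in the untreated kidney and -1.07, -0.59 and -1.01 in the obstructed kidneys (log2 change 2.70 ± 0.18, adjusted p = 1.06e-05), and Il6, of the same ligand family, rose at least 3.05-fold. Il15, which sustains NK cells and is made by healthy tubules, fell by 1.56 ± 0.15, a call lost with normexp (adjusted p = 0.194).

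Most innate sensing and interferon genes rose. Of 25 NF-kappaB and sensing genes 21 rose, 0 fell and 4 did not pass (median 1.91). Cd14, given above, had the largest rise of this list (3.84). The Toll-like receptor Tlr2 (3.25 ± 0.31) and the adhesion molecule Vcam1 (3.23 ± 0.35) came next. Vcam1 had levels of -0.05 and -0.34 in the sham kidneys, -0.37 in the untreated kidney and 2.39, 3.90 and 2.65 in the obstructed kidneys, again with no overlap. Of 27 interferon-stimulated genes 25 rose, 0 fell and 2 did not pass (median 1.27), with the guanylate-binding proteins Gbp2 (2.39 ± 0.19) and Gbp3 (2.24 ± 0.13) and the antiviral sensor Oas1a (1.89 ± 0.20). Complement and coagulation genes were divided, 30 tested, of which 14 rose, 5 fell and 11 did not pass: beside C3, the complement protease Cfi rose by 3.42 ± 0.20, while the anticoagulant protein C gene Proc fell by 1.15 ± 0.22 and Cd55, which guards cells against complement, by 1.35 ± 0.21.

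Most matrix genes rose within the 2 days. Of 34 collagen and matrix genes 26 rose, 1 fell and 7 did not pass (median 1.28, or 1.16 with dim genes at their bound). Col1a1, the main fibrillar collagen of scar, had levels of 1.96 and 1.35 in the sham kidneys, 2.36 in the untreated kidney and 5.11, 5.42 and 5.13 in the obstructed kidneys (log2 change 3.33 ± 0.25, adjusted p = 1.91e-05), and Col3a1 rose by 3.50 ± 0.25. The glycoproteins Tnc (2.58 ± 0.27) and Postn (2.26 ± 0.30), which appear in repairing tissue, rose, and Col4a3, a chain of the glomerular basement membrane, fell (-1.19 ± 0.17). Ltbp2, which binds elastic microfibrils, rose at least 14.7-fold. By family, collagens split further, with 29 tested, of which 15 rose, 7 fell and 7 did not pass (4 fell with normexp): Col17a1, a hemidesmosome collagen of epithelia, rose at least 7.41-fold, and Col27a1 fell by 2.39 ± 0.09. Of 24 integrin genes, the cell receptors for matrix, 16 rose, 1 fell and 7 did not pass (median 0.78), with the leukocyte integrin Itgax at 2.06 ± 0.18.

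Most contractile genes rose as well. Of 18 myofibroblast and contractile genes 14 rose, 0 fell and 4 did not pass (median 1.37), and all 4 tropomyosins rose. Acta2, the smooth muscle actin of myofibroblasts, had levels of 3.13 and 3.0 in the sham kidneys, 2.72 in the untreated kidney and 6.13, 5.78 and 5.33 in the obstructed kidneys (log2 change 2.80 ± 0.20, adjusted p = 1.52e-05). Tpm2 rose by 1.86 ± 0.19 and the calcium-binding S100a4 and S100a6 by 2.31 ± 0.18 and 2.78 ± 0.23. The summed level of ureter and vessel smooth muscle markers was 0.00 to 0.86 in control and 0.83 to 1.55 in obstructed kidneys, with 2 of 4 called higher, and its part in the contractile rise was not tested. Fibroblast and pericyte genes were mixed: of 21 tested 9 rose, 3 fell and 9 did not pass (median 0.68). Thy1, a fibroblast and T cell surface protein, rose by 2.83 ± 0.23 and the receptor Pdgfrb by 1.31 ± 0.15, while Reln (-2.38 ± 0.27; normexp adjusted p = 0.0689) and the pericyte gene Rgs5 (-0.95 ± 0.13) fell.

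Proteases, growth factors and their receptors were divided. In the protease and inhibitor list 22 were tested and 10 rose, 3 fell and 9 did not pass. Beside Timp1, the matrilysin Mmp7 rose at least 19.6-fold and the stromelysin Mmp3 by 4.36 ± 0.29, measured on 1 of the 3 control arrays, while Timp3, another inhibitor, fell by 1.07 ± 0.17. The inhibitors Timp1 and Timp3 therefore moved in opposite directions. Of 32 genes of TGF-beta, activin and BMP signalling 14 rose, 2 fell and 16 did not pass: Tgfb1 had levels of -1.18 and -1.32 in the sham kidneys, -1.63 in the untreated kidney and 0.17, 0.27 and -0.28 in the obstructed kidneys (log2 change 1.43 ± 0.18, adjusted p = 0.000287), the activin chain Inhba rose by 2.78 ± 0.43, measured on 2 of the 3 control arrays, and Bmp7, which protects tubules, fell by 1.21 ± 0.15. In the growth factor list 37 were tested and 10 rose, 17 fell and 10 did not pass (median -0.28, positive with normexp at 0.07, where 6 rose). Nrg1, a ligand of the ERBB receptors, had levels of -3.12 and -2.51 in the sham kidneys, -2.99 in the untreated kidney and -0.14, -0.55 and -0.28 in the obstructed kidneys (log2 change 2.55 ± 0.20, adjusted p = 2.54e-05), while Egf and Hbegf (-1.15 ± 0.31), ligands of the same receptor family, fell. Of 6 IGF-binding proteins 5 fell and none rose, with Igfbp4 at -1.85 ± 0.14 and Igfbp1 at -2.20 ± 0.32. Hgf, a mitogen of tubule cells, rose at least 1.68-fold, and the Wnt ligand Wnt4, active in tubule formation and repair, by 2.37 ± 0.32, measured on 1 of the 3 control arrays.

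Hormone receptors and renal hormones mostly fell. Of 39 members 6 rose, 21 fell and 12 did not pass (median -0.63; 15 fell with normexp, median -0.21). Kl, the co-receptor for the phosphate hormone FGF23, had levels of 3.91 and 3.99 in the sham kidneys, 4.04 in the untreated kidney and 1.88, 1.63 and 2.07 in the obstructed kidneys (log2 change -2.12 ± 0.15, adjusted p = 1.33e-05). Ren1, renin, had levels of 4.56 and 4.08 in the sham kidneys, 5.03 in the untreated kidney and 3.72, 3.48 and 2.96 in the obstructed kidneys (log2 change -1.17 ± 0.28, adjusted p = 0.00816), and the angiotensin-converting enzyme Ace fell by 1.34 ± 0.25. The vasoconstrictor endothelin 1, Edn1, rose instead, with levels of -3.95 and -3.25 in the sham kidneys, -3.35 in the untreated kidney and -1.0, -0.56 and -0.92 in the obstructed kidneys (log2 change 2.69 ± 0.23, adjusted p = 3.29e-05). Epo itself could not be followed: neither of its 2 probes was well above background on any array. The Ren1 arms lay closer than those of Kl and Edn1, which were wide apart.

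Markers of cells that do not belong to the kidney, or only in part, were read on the same arrays. Summed levels were 1.03 to 3.1 in control and 0.08 to 0.64 in obstructed kidneys for B and plasma cells, 2.20 to 4.32 in control and 2.85 to 3.64 in obstructed kidneys for erythroid cells, -2.29 to 0.51 in control and -2.92 to -2.51 in obstructed kidneys for adrenal cortex, 6.0 to 6.17 in control and 5.74 to 5.76 in obstructed kidneys for adipocytes and -2.93 to -2.50 in control and -1.84 to -1.07 in obstructed kidneys for exocrine pancreas. The B cell, erythroid and adrenal sums differed by 2 or more among the control kidneys, and only the erythroid ranges overlapped. The erythroid sum includes Slc4a1, also an intercalated cell gene, with means of 2.07 in control and -2.32 in obstructed kidneys. Hba-a1 (1.37 and 3.11) and Alas2 (-2.64 and -0.84) had higher means in obstructed kidneys but were not called. The erythroid overlap thus joins opposite differences. Of the 7 B and plasma cell genes tested 2 rose, 2 fell and 3 did not pass, with Cd79b at 1.04 ± 0.15. The adipocyte sum was set by Fabp4 (mean 6.04 in control and 5.73 in obstructed kidneys). Cidec, Adipoq and Plin1 had means of -0.90 or lower and were not called, and Lep was not detected. Of the pancreas markers only Cela1 was called (-4.43 in control and -1.84 in obstructed kidneys). Cel was not called, and Cpa1, Prss2 and Pnlip were not well above background on any control or obstructed array. What any of these cell types contributed to other results was not tested. The labelled tissue bore its own markers: all 6 proximal tubule and all 4 podocyte markers were detected in control kidneys.

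Some genes differed among the obstructed kidneys far more than most. By SD over the obstructed arrays, among genes well above background on all 6, the highest included Ntn4, a netrin of basement membranes, Cyp4a14, a fatty acid hydroxylase, and Hp, haptoglobin, with SDs of 1.80, 1.69 and 1.64. Ntn4 had levels of -3.11 and -3.0 in the sham kidneys, -2.48 in the untreated kidney and -4.28, -4.50 and -1.28 in the obstructed kidneys, so obstructed kidney 3 stood above and kidneys 1 and 2 below all controls. Defb1, a defensin of the distal nephron, had levels of 0.49 and 0.57 in the sham kidneys, 0.44 in the untreated kidney and 2.30, 0.20 and 0.00 in the obstructed kidneys: only obstructed kidney 1 left the control range by more than 0.5. Cyp4a14 had levels of 0.98 and 5.56 in the sham kidneys, 3.37 in the untreated kidney and 5.08, 1.84 and 4.30 in the obstructed kidneys and varied as widely among controls. Hsd3b2, a steroid dehydrogenase, fell by 2.26 ± 0.63 (adjusted p = 0.0172), with 3.84 and 3.96 in the sham kidneys, 4.62 in the untreated kidney and 1.18, 0.89 and 3.58 in the obstructed kidneys, and this call was lost without the untreated kidney (adjusted p = 0.0528), obstructed kidney 1 (0.0621) or obstructed kidney 2 (0.0609). Hp was called (log2 change 2.74 ± 0.92, adjusted p = 0.0367), and not without sham kidney 2 (0.112), the untreated kidney (0.089), obstructed kidney 1 (0.117) or obstructed kidney 3 (0.0801), nor without a filter on dim probes (0.0664) or in the 6 arrays alone (0.0501). Saa1, the next most scattered acute-phase gene named here, had an SD of 0.72.

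For 4455 genes more than 1 probe was measured, 10093 probes in all, of which the brightest stands for the gene above. Over single probes 46.9% of 23544 were called. All probes of a gene rose together in 574 of these genes and fell together in 855, none was called in 1782, and 1224 held called and uncalled probes. In 20 genes probes were called in opposite directions. Kif20b, a kinesin of cell division, is an example: 1 probe had levels of -3.34, -3.72 and -3.03 in control and -1.76, -2.03 and -1.15 in obstructed kidneys and rose by 1.72, and the brightest had levels of -0.91, -0.65 and -1.74 in control and -3.60, -3.84 and -3.54 in obstructed kidneys and fell by 2.56. The third probe was called higher but was not well above background on any control array. The gene is counted as a fall here, and among all 34 kinesin genes 17 rose and 4 fell. Lrrc58, a leucine-rich repeat protein, showed the reverse, its brightest probe rising by 0.33 (not called with normexp, adjusted p = 0.537) and the other 3 falling by 1.22, 1.31 and 1.51. With all probes averaged the change was 0.37 for Kif20b and -0.93 for Lrrc58, each opposite in sign to the value counted here. Which transcripts these probes read was not tested.

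Some genes read by probes of very high signal were not called. Lars2, a mitochondrial leucyl-tRNA synthetase (-0.28 ± 0.12, adjusted p = 0.0783), Fth1, ferritin heavy chain (-0.12 ± 0.16, adjusted p = 0.566), Ldhb, a lactate dehydrogenase (-0.11 ± 0.10, adjusted p = 0.413), and the ribosomal fusion gene Fau (-0.06 ± 0.10, adjusted p = 0.657) did not pass the threshold. Lars2 was called with normexp (adjusted p = 0.049), with the slide as a block (0.0265) and without the untreated kidney (0.0265), and Ldhb with normexp (log2 change -0.42, adjusted p = 0.0339). Cox6a1 (-0.57 ± 0.10) and Cox8a (-0.75 ± 0.11), of cytochrome c oxidase, and the peroxidase Gpx1 (-0.65 ± 0.10) fell. No spot was saturated on any array, so no value here was cut off at the top of the scale.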

How the data were processed

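Total RNA of 1 left kidney per mouse was hybridised to a single-colour Agilent array, and the deposited scanner files hold the intensity of each spot after the scanner software's own background subtraction (Feature Extraction 10.7.3.1, per the file headers). Control spots and outlier spots were left out, each array was divided by its 75th percentile and log2 was taken. Probes well above background on at least 3 arrays were kept, and the brightest probe stood for a gene. limma 3.58.1 in R 4.3.3 fitted the control, obstructed and release arms over 9 arrays, with 0.05 as the threshold after Benjamini-Hochberg adjustment. The labels do not say how the mice relate to each other beyond being separate samples, so p-values measure the spread between these samples. Each of 3 slides held 1 array of each arm, with the untreated kidney and obstructed kidney 3 on the same slide, scanned on another date than the other slides.

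The genes named were the largest rises and falls, the leading members of 62 gene lists and 75 symbol families, and the most scattered genes. Members and lists were chosen with earlier results of these data known. Alternatives were normexp background correction (offset 50, on the median signal and median background), quantile normalization, other filters, the mean of a gene's probes, the slide or replicate number as a block, the 6 arrays alone, and each array left out. Array number limits the precision. The authors' own processed table was not used, and some results are not reported here.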

Additional observations from a re-analysis of the deposited data

How the results depend on the processing

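Of 17742 genes 8676 were called in the values reported. With normexp background correction, applied to median rather than mean signals, 5626 were called, 2519 higher and 3107 lower, and 5414 of the original calls were kept; the cause of the lower count was not tested. Quantile normalization called 8583, the slide as a block 10337, the 6 arrays alone 8161, and the mean of a gene's probes 8709. Without a filter on dim probes 7853 of 32282 genes were called, and with probes well above background on all 9 arrays 7770 of 15127. Leaving out 1 array gave 7147 to 8346 calls, with 3159 to 3651 higher and 3988 to 4695 lower. Among the genes the text names, the sign turned only for Lrrc58 (-0.93) and Kif20b (0.37), both with the mean of probes.

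Replicate numbers are shared between groups, and deviations from the arm means correlated at 0.22 between sham kidney 1 and obstructed kidney 1, 0.16 between sham kidney 2 and obstructed kidney 2, and -0.21 between the untreated kidney and obstructed kidney 1, so the numbers do not pair all samples. The first 2 of these pairs also share a slide, and the untreated kidney shares one with obstructed kidney 3 (0.28); pairs on different slides lay between -0.21 and 0.00. The slide as a block lost no call of a named gene and added those of Pecam1 and Lars2. With the replicate block 8594 genes were called, 3757 higher and 4837 lower, and 7941 of the original calls were kept. Of the named genes, only Nfil3 lost its call under the block. Dim genes, with bounds in place of folds, are the part of the data that signal over background limits.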
